A study of Mus musculus with 8 samples.

Results

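The colony-stimulating factors and their receptors were examined as a set of 9 genes: the ligands Csf1, Il34, Csf2 and Csf3 and the receptor chains Csf1r, Csf2ra, Csf2rb, Csf2rb2 and Csf3r. A probe set was taken where the platform annotation named 1 of these genes and no other, which gave 16 of the 45101 probe sets of the array and all 9 genes, among 18193 genes measured. The samples were intervertebral discs of female BALB/c mice, 3 naive and 5 immunized, and for every sample the RNA of 6 lumbar discs was pooled. Immunized mice had received cartilage proteoglycan (100 µg of protein) with 2 mg of the adjuvant dimethyldioctadecyl-ammonium bromide (DDA) on days 0, 21 and 42, which induces proteoglycan-induced spondylitis, an autoimmune inflammation of the spine. Naive controls were matched for age, no age being stated, and are not labelled as given adjuvant, so effects of proteoglycan and of adjuvant cannot be told apart. The titles call the replicates biological, but 2 samples, naive replicate 3 and immunized replicate 1, carry a pair of joined sample numbers in their descriptions.

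Colony-stimulating factors are secreted proteins that keep myeloid cells alive, make them divide and steer their maturation. Macrophage colony-stimulating factor (Csf1) and interleukin 34 (Il34) both bind the receptor tyrosine kinase Csf1r of monocytes, macrophages and osteoclast precursors. Granulocyte-macrophage colony-stimulating factor (Csf2) binds the alpha chain Csf2ra, which signals through the common beta chain Csf2rb, also used by the receptors of interleukins 3 and 5. Mice carry a close neighbouring copy of that beta chain, Csf2rb2, which serves interleukin 3. Granulocyte colony-stimulating factor (Csf3) acts on neutrophils and their precursors through Csf3r.

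Both chains of the granulocyte-macrophage factor's receptor and the interleukin 3 beta chain Csf2rb2 rose in the discs of immunized mice, and the 4 ligands did not pass the test. Csf2rb2 was 3.28-fold, Csf2rb 2.72-fold and Csf2ra 1.45-fold higher. At an adjusted p under 0.05 in limma, 3 members of the set rose and 0 fell, and by the unadjusted p 4 rose and 0 fell. Over all genes tested 4.46% rose and 4.68% fell by the adjusted rule, and 12.9% rose and 18.2% fell by the unadjusted one. For 2 members, both beta chains, the lowest immunized sample exceeded the highest naive one, and 0 members showed the reverse, against 9.39% of all genes above and 14.0% below. Csf2ra overlapped between the groups (p = 0.0714, exact permutation test). Each of the 3 adjusted calls was lost when certain single samples were left out. Discs are bulk tissue, so more cells that carry a receptor and more RNA per cell cannot be told apart.

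**Figure D1:**
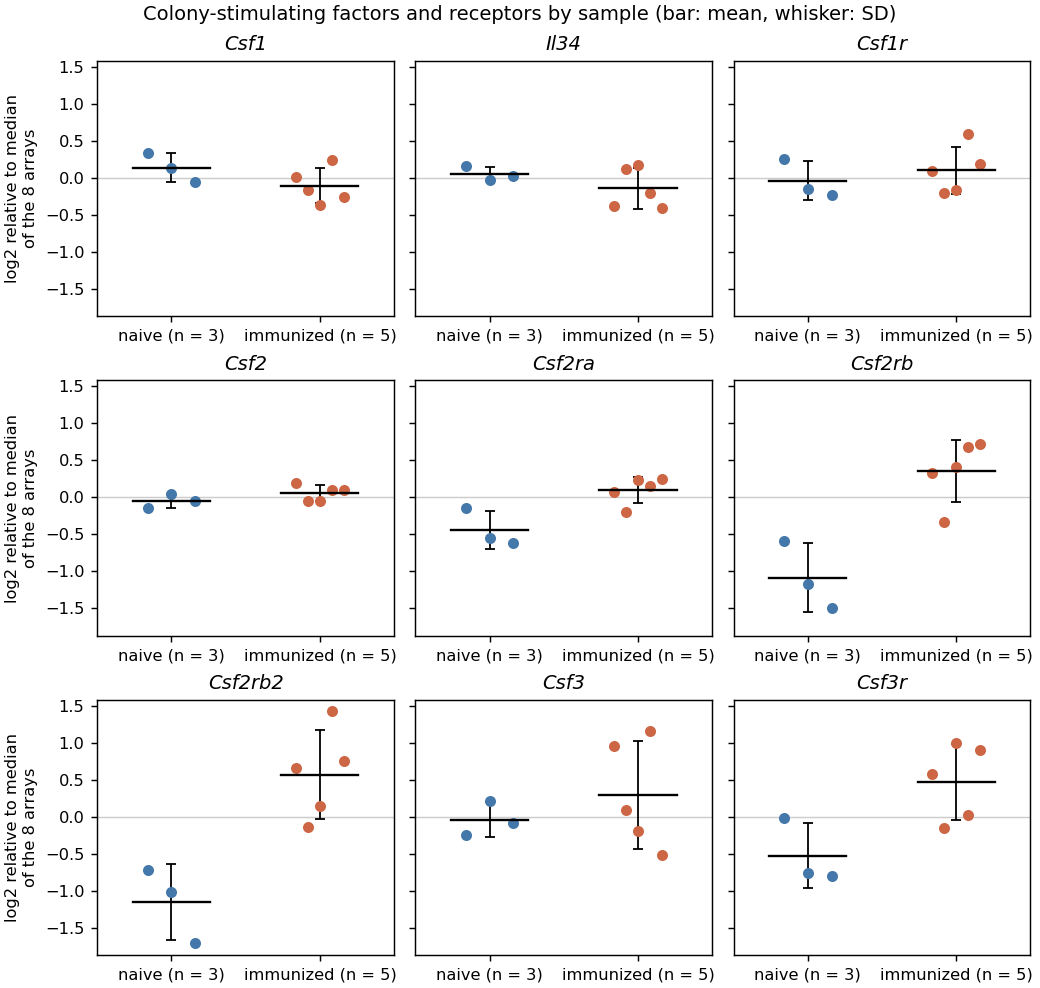
Log2 value of each of the 9 genes in every sample, relative to the median of the 8 arrays (y axis), for naive (blue, n = 3) and immunized (orange, n = 5) samples; bars are means and whiskers SDs. The groups do not overlap in Csf2rb and Csf2rb2, and overlap in the other genes.

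Upstream sequence is shown for the 3 receptor chains with an unadjusted p under 0.05 and a matched promoter window. Of these Csf2rb2 and Csf2ra passed the adjusted test and Csf3r did not. RefSeq promoter windows (GRCm38.p6) were matched for 5 of the 9 genes, Csf1, Csf2, Csf2ra, Csf2rb2 and Csf3r, each with 1 start. For Csf1r, Il34, Csf2rb and Csf3 no window was used, which does not show that RefSeq holds none for them. The starts used for Csf2ra and Csf3r lie inside the full annotated span of those genes, which reaches further upstream, so their stretches are upstream of that start only. In the 250 bases before the start used, both strands were searched for GAGGAA, the core bound by the myeloid transcription factor PU.1, for the longer AGAGGAA, which contains it, and for TTCNNNGAA, an element bound by STAT5. All 250 bases of Csf2rb2 (chr15:78305722-78305971, minus strand) and 30 bases of Csf2ra (chr19:61228419-61228448, minus strand) and Csf3r (chr4:126024561-126024590, plus strand) follow, 5′ to 3′, with matches in capitals.
Csf2rb2: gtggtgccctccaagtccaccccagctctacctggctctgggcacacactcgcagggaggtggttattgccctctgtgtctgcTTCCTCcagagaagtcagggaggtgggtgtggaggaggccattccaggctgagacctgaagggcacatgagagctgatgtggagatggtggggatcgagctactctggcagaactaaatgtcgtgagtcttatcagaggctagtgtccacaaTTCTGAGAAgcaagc
Csf2ra: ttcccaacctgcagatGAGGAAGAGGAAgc
Csf3r: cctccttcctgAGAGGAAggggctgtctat
Csf2rb2 held GAGGAA on the opposite strand 167 to 162 bases before the start, and TTCNNNGAA 15 to 7 bases before it. Csf2ra held GAGGAA at 2 places within 14 bases of the start, the nearer of them as AGAGGAA. Csf3r held AGAGGAA 87 to 81 bases before the start. No match to any of the 3 motifs was found in these windows of Csf1 and Csf2. Among the 32851 windows searched, 23.3% held GAGGAA, 8.55% AGAGGAA and 7.02% TTCNNNGAA, so the first is common. The matches are letters only, and the arrays measured no binding.

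Each log2 value that follows is a difference from the gene's own midpoint over the 8 arrays, so 1 unit is a doubling and genes cannot be ranked by level. Array medians ran from -0.012 to 0.016, and the SD over genes from 0.21 to 0.41, highest in naive replicate 1.

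Csf2rb, the common beta chain, measured -0.59, -1.17 and -1.5 in naive replicates 1 to 3 and 0.33, -0.33, 0.41, 0.68 and 0.72 in immunized replicates 1 to 5. Naive replicate 1 was the highest of its group and immunized replicate 2 the lowest of its own, and a gap remained between them. The mean rose from -1.09 ± 0.46 (SD, n = 3) to 0.36 ± 0.42 (SD, n = 5), a difference of 1.45 ± 0.27 (SE, adjusted p = 0.0229 in limma). The exact two-sided permutation test over samples gave p = 0.0357, the smallest it can give. Both probe sets of Csf2rb rose alike, by 1.39 ± 0.25 and 1.5 ± 0.29.

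Csf2rb2, the beta chain of the interleukin 3 receptor, had the largest difference of the 9 genes. Its single probe set measured -0.71, -1.02 and -1.71 in the naive samples and 0.66, -0.15, 0.15, 1.42 and 0.75 in immunized replicates 1 to 5. The order of samples differed from that of Csf2rb, immunized replicate 4 lying far above the rest. The difference was 1.72 ± 0.35 (SE, adjusted p = 0.0277 in limma; exact permutation p = 0.0357). A further probe set, which the annotation assigns to both beta chains and which therefore stayed out of both, behaved differently. It differed by 0.19 ± 0.14 (SE, adjusted p = 0.383 in limma over all probe sets), and its groups overlapped. Averaged into each gene, it brought the difference down to 1.03 ± 0.22 for Csf2rb and 0.96 ± 0.24 for Csf2rb2, and both still passed (adjusted p = 0.0295 and 0.0412 in limma). Because the chains are near copies, the single-gene probe sets may also share signal, which was not tested.

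Csf2ra, the chain that binds the granulocyte-macrophage factor, had the smallest of the 3 differences that passed. It measured -0.15, -0.55 and -0.62 in the naive and 0.07, -0.20, 0.23, 0.15 and 0.24 in the immunized samples. Naive replicate 1 lay above immunized replicate 2, so the groups overlapped. The difference of 0.54 ± 0.14 passed narrowly (SE, adjusted p = 0.0457 in limma), while the exact permutation test gave p = 0.0714. Its 2 probe sets disagreed in size. The brighter (lowest array at 8 or more on the log2 scale) rose by 0.86 ± 0.15 with no overlap (adjusted p = 0.0226 in limma over all probe sets), and the dimmer differed by 0.22 ± 0.14 (adjusted p = 0.330 in limma). Tested singly, 4 of the 16 probe sets rose, against 3.30% of all probe sets.

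**Figure D2:**
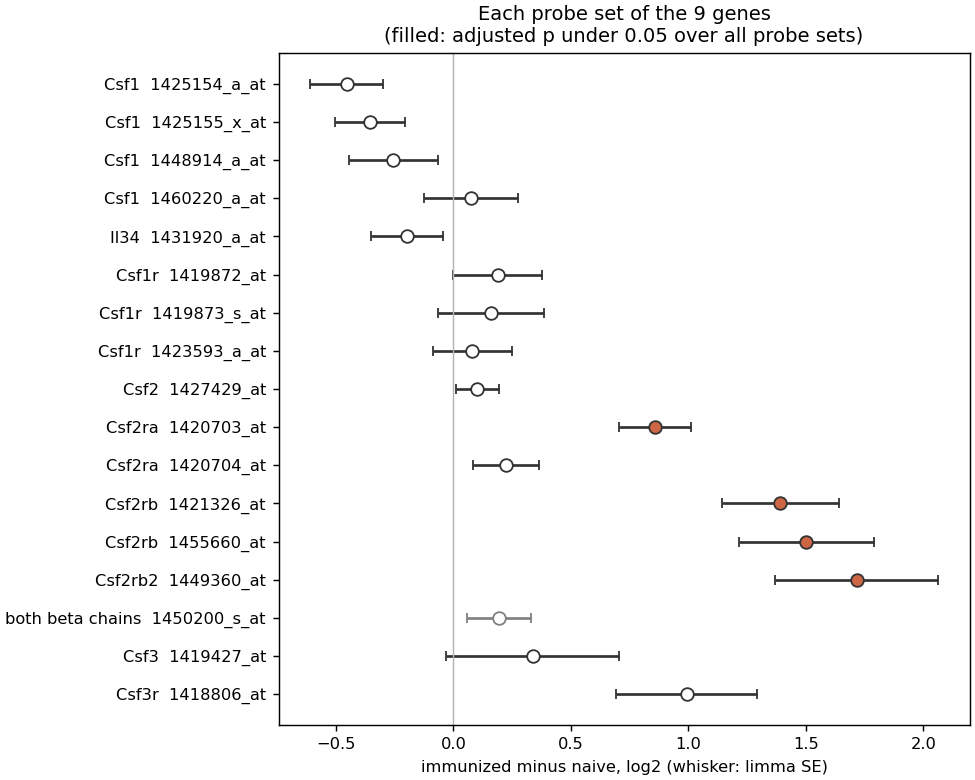
Difference between immunized (n = 5) and naive (n = 3) samples in log2 (x axis) for each of the 16 probe sets and, in grey, the probe set that names both beta chains; whiskers are limma standard errors and filled points have an adjusted p under 0.05 over all probe sets. The filled points are 1 probe set of Csf2ra, both of Csf2rb and that of Csf2rb2.

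All 3 calls depended on single samples. Csf2rb missed the threshold without naive replicates 2 and 3 or immunized replicates 1 and 5 (adjusted p = 0.0827, 0.0654, 0.0633 and 0.0509 in limma). Csf2rb2 missed it without any 1 naive replicate (0.0565, 0.0844 and 0.0778) or without immunized replicates 1 and 5 (0.0746 and 0.0591). Csf2ra passed only without naive replicate 1 (0.0440) or immunized replicate 2 (0.0161), and its adjusted p in the other 6 omissions lay between 0.0788 and 0.133. Leaving out both samples with joined numbers ended the 3 calls (adjusted p = 0.157 for Csf2rb, 0.170 for Csf2rb2 and 0.214 for Csf2ra in limma). Csf2ra also failed after quantile normalization of the centred values (adjusted p = 0.0871 in limma) and with a trended, robust variance model (0.0714). In the omissions of 1 sample the differences stayed between 1.24 and 1.70 for Csf2rb, 1.43 and 1.93 for Csf2rb2 and 0.45 and 0.69 for Csf2ra.

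The receptor of the granulocyte factor, Csf3r, pointed the same way without passing. Its values were -0.02, -0.76 and -0.80 in naive and 0.57, -0.15, 1.00, 0.02 and 0.90 in immunized samples. Immunized replicates 3 and 5 were highest, and naive replicate 1 lay between immunized replicates 2 and 4, so the groups overlapped. The difference was 0.99 ± 0.30 (SE, 95% interval 0.31 to 1.68, adjusted p = 0.0685 in limma; exact permutation p = 0.0714). Without immunized replicate 2 it was 1.15 ± 0.27 and passed (adjusted p = 0.0283 in limma), as it did with array weights (1.23 ± 0.20, adjusted p = 0.00328). These were the only 2 of 18 alternatives in which Csf3r passed. In them 3003 and 5900 genes passed, against 1663 with all samples at equal weight.

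Csf1r, the receptor that defines the macrophage lineage, showed little difference. It measured 0.26, -0.15 and -0.23 in naive and 0.09, -0.20, -0.16, 0.59 and 0.19 in immunized samples, the groups lying within each other apart from immunized replicate 4. The difference was 0.14 ± 0.19 (SE, 95% interval -0.29 to 0.57, adjusted p = 0.645 in limma). Its 3 probe sets, all with the lowest array at 8 or more (log2), gave differences from 0.080 to 0.19. A rise of up to 0.57 lies within the interval, so the test does not show equal levels.

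Of the ligands, Csf1 had a lower mean in immunized samples and did not pass the test. Its gene mean was 0.33, 0.14 and -0.05 in naive and 0.0071, -0.17, -0.37, 0.24 and -0.25 in immunized samples, a difference of -0.25 ± 0.15 (SE, 95% interval -0.58 to 0.08, adjusted p = 0.282 in limma). Its 4 probe sets disagreed in sign. They gave -0.45 ± 0.16, -0.35 ± 0.15, -0.26 ± 0.19 and, for the brightest, 0.075 ± 0.20, and no probe set passed in limma. In the first of these all immunized samples (-0.37 to 0.0029) lay below all naive samples (0.073 to 0.63), although its adjusted p was 0.104 in limma over all probe sets.

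Il34, the other ligand of Csf1r, measured 0.16, -0.02 and 0.02 in naive samples and -0.39, 0.12, 0.17, -0.20 and -0.41 in immunized samples. Immunized replicates 2 and 3 sat with the naive samples and the other immunized samples lay lower. The difference was -0.20 ± 0.15 (SE, 95% interval -0.54 to 0.14, adjusted p = 0.402 in limma). Csf2, the granulocyte-macrophage factor itself, was nearly flat, from -0.14 to 0.05 in naive and from -0.06 to 0.20 in immunized samples. It differed by 0.10 ± 0.09 (SE, 95% interval -0.09 to 0.30, adjusted p = 0.452 in limma).

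Csf3, the granulocyte factor, varied most among the immunized mice. Naive samples measured -0.25, 0.21 and -0.09, and immunized replicates 1 to 5 measured 0.96, 0.09, -0.19, 1.16 and -0.52. Immunized replicates 1 and 4 were high, while replicates 3 and 5, the highest in Csf3r, were the lowest of the immunized samples. The mean difference was 0.34 ± 0.37 (SE, 95% interval -0.50 to 1.18, adjusted p = 0.565 in limma), with an SD of 0.73 among immunized samples (n = 5) and 0.23 among naive samples (n = 3). The probe sets of Csf2, Csf3 and Il34 had their lowest array between 4 and 8 (log2).

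Within-array differences were used to set receptors against ligands and against markers of the cells that carry them. They comprised 9 quantities, each tested by an exact two-sided permutation test. The smallest p is 0.0357, and an adjusted p under 0.05 would have needed at least 7 quantities at that floor. Csf2rb minus Csf2ra ran from -0.88 to -0.44 in naive and from -0.13 to 0.52 in immunized samples, a difference of 0.91 with no overlap (p = 0.0357, exact; adjusted p = 0.107). No immunized sample fell within the naive range, but the adjusted test was not passed. Csf2rb minus Csf2rb2 overlapped between the groups and differed by -0.27 (p = 0.321, exact; adjusted p = 0.402).

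Csf1r minus Csf1 was -0.29 to -0.07 in naive and -0.03 to 0.44 in immunized samples, a difference of 0.39 with no overlap (p = 0.0357, exact; adjusted p = 0.107). Csf1r minus Il34 differed by 0.34 and overlapped (p = 0.357, exact; adjusted p = 0.402). Csf3r minus Csf3 had the widest spread, from -1.14 to 1.42 in immunized samples, and differed by 0.65 (p = 0.429, exact; adjusted p = 0.429).

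**Figure D3:**
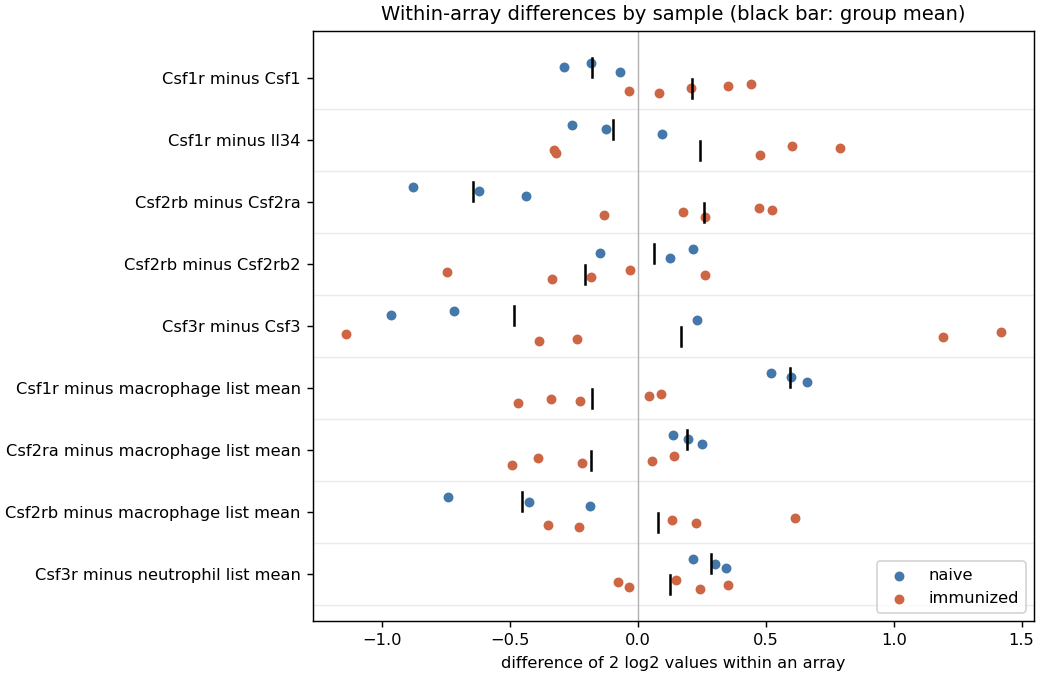
Differences of 2 log2 values within an array (x axis) for the 9 quantities in every naive (blue) and immunized (orange) sample; black bars are group means. Csf1r minus the macrophage list mean lies at 0.52 to 0.66 in naive and -0.47 to 0.09 in immunized samples.

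Several markers of macrophages, neutrophils and eosinophils also rose. Of the neutrophil precursor and osteoclast markers 0 passed the adjusted test in limma (8 and 0 higher, unadjusted). Over all genes, the base for these and the following lists, 4.46% were higher and 4.68% lower in limma (12.9% and 18.2% unadjusted). Of 15 macrophage markers 7 were higher and 0 lower in limma (11 and 0 unadjusted), with a median difference of 0.83, against a median of -0.035 over all genes. They were led by the lysozyme gene Lyz2 (0.91 ± 0.13), the integrin Itgam (1.81 ± 0.29), the perforin-like Mpeg1 (1.39 ± 0.24) and the surface receptor Adgre1 (1.45 ± 0.27). In the same list Mertk (-0.080 ± 0.18) and Siglec1 (-0.053 ± 0.075) had slightly lower means in immunized samples, and neither passed in limma. The mean of the list ran from -0.76 to -0.40 in naive and from 0.02 to 0.56 in immunized samples. Csf1r minus that mean was lower in every immunized sample than in every naive sample, by -0.77 on average (p = 0.0357, exact; adjusted p = 0.107). Csf2ra minus the same mean differed by -0.38 (p = 0.0714, exact; adjusted p = 0.161), and Csf2rb minus it by 0.53 (p = 0.107, exact; adjusted p = 0.193), both with overlap.

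Of 6 neutrophil markers measured 4 were higher: the interleukin 1 decoy receptor Il1r2 (1.84 ± 0.24), Cxcr2 (1.54 ± 0.34), which guides neutrophils along chemokine gradients, Mmp8 (1.47 ± 0.35), which cleaves collagen, and S100a9 (0.40 ± 0.09), a subunit of calprotectin. The list mean was -0.36, -1.06 and -1.02 in naive and 0.33, -0.12, 0.65, 0.10 and 0.75 in immunized samples. As in Csf3r, immunized replicates 3 and 5 were highest, immunized replicate 2 lowest of its group and naive replicate 1 highest of its own. Csf3r minus the list mean differed by -0.16 (p = 0.25, exact; adjusted p = 0.375), with overlap. The part of these markers in the receptor differences was not tested.

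Eosinophils, which respond to interleukin 5 through the common beta chain, were represented by 4 markers, of which 3 were higher: Siglecf (1.59 ± 0.27), Ccr3 (1.27 ± 0.32) and Prg2 (0.87 ± 0.21). The list mean was -0.85 to -0.62 in naive and -0.19 to 0.76 in immunized samples. Of 3 monocyte markers measured Ccr2, a chemokine receptor, was higher (1.62 ± 0.24). Among the 8 neutrophil precursor markers the largest moderated t was that of Ltf (0.73 ± 0.20). Naive replicate 1 (0.03) lay above immunized replicates 2 (-0.15) and 4 (-0.03) in the mean of that list. Of 9 osteoclast markers 0 passed in limma in either direction (0 unadjusted), the largest t being that of Calcr (0.58 ± 0.46).

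Among all genes 4.46% were higher and 4.68% lower in limma (12.9% and 18.2% unadjusted), with 9.39% above and 14.0% below by non-overlap. The macrophage, monocyte, neutrophil, neutrophil precursor and eosinophil lists together held 36 distinct genes. Of these 15 were higher and 0 lower in limma (31 and 0 unadjusted), with 17 above and 0 below by non-overlap. Dropping naive replicate 1, 2 or 3 left 10, 0 or 1 of them higher, and dropping immunized replicates 1 to 5 in turn left 4, 19, 10, 12 and 9. Omitting together the 3 samples highest in neutrophil precursor markers for their group (naive 1, immunized 3 and immunized 5), an alternative chosen after the data were seen, left 9 of the 36 markers higher. Of all genes 173 were then higher in limma. In that setting 0 of the 9 genes passed in limma (4 higher, unadjusted), and the differences were 1.56 ± 0.29 in Csf2rb, 2.01 ± 0.45 in Csf2rb2, 0.59 ± 0.12 in Csf2ra and 0.93 ± 0.21 in Csf3r.

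Markers of other cells were also examined. Of 8 disc and cartilage markers 3 were lower, the keratin Krt19 of the nucleus pulposus (-2.01 ± 0.36), the collagen Col9a1 (-1.75 ± 0.44) and the chondrocyte factor Sox9 (-0.83 ± 0.19), and the list mean ran from 0.57 to 0.73 in naive and from -0.87 to 0.31 in immunized samples. In limma 0 of them were lower when any 1 naive sample was dropped (7 lower, unadjusted, with all samples), and 0, 7, 2, 1 and 1 when immunized replicates 1 to 5 were dropped in turn. Of all genes 851 were lower with all samples, and 120, 4 and 55 without naive replicates 1 to 3. Without immunized replicates 1 to 5 in turn, 47, 1710, 344, 377 and 158 of all genes were lower. Values are centred and the level class of the lowest array is not given for these disc markers, so their presence was not assessed. Among mast cell markers Hdc was higher (1.37 ± 0.26) and Cma1 lower (-0.61 ± 0.14) of 6, and among T cell markers Cd3g was higher (1.03 ± 0.23) of 5. In limma 0 of 4 B cell (1 lower, unadjusted), 0 of 3 erythroid (0 unadjusted), 0 of 5 fibroblast (1 higher, unadjusted) and 0 of 5 endothelial markers (1 higher, unadjusted) passed. The largest t in these lists were those of Cd79a (-0.83 ± 0.26), Alas2 (0.13 ± 0.26), Lum (0.73 ± 0.20) and Tek (0.52 ± 0.21).

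Partners of these receptors came from 7 lists with 56 distinct genes measured, of which 7 were higher and 2 lower in limma (22 and 3 unadjusted), with a median difference of 0.22. All genes gave 4.46% higher and 4.68% lower (12.9% and 18.2% unadjusted). By the adjusted rule the pathway genes that fell make up a share near that of all genes. The share that rose was larger by either rule, and the share that fell unadjusted was smaller, with no set test. Of the 4 genes that share the beta chains, Il3, Il3ra, Il5 and Il5ra, 0 passed in limma (1 lower, unadjusted), so neither the interleukins nor their alpha chains met the test that Csf2rb met. Il3 differed by -0.26 ± 0.10 (adjusted p = 0.126 in limma). Neither Sdc1 (-0.089 ± 0.23) nor Ptprz1, the other reported receptors of interleukin 34, passed in limma (0 unadjusted). Among kinases related to Csf1r and their ligands, Kitl, the ligand of the Kit receptor, was higher (0.59 ± 0.13), 1 of 5, and Kit differed by 0.60 ± 0.18 (adjusted p = 0.0702 in limma).

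In the signalling chain below the receptors, Jak2, the kinase bound to the beta chain and Csf3r, was higher by 0.44 ± 0.10 and Jak1 by 0.40 ± 0.10, while the adaptor Shc1 was lower (-0.44 ± 0.09), 3 of 14 genes. Jak2 measured -0.50, -0.24 and -0.26 in naive and 0.13, -0.04, 0.31, 0.04 and 0.09 in immunized samples, with no overlap. Tyrobp, an adaptor of myeloid receptors, differed by 0.84 ± 0.24 (adjusted p = 0.0598 in limma). Of 11 genes of feedback and attenuation only the phosphatase Ptpn6 was higher (0.91 ± 0.23) in limma, and Socs3 differed by 0.96 ± 0.38 (adjusted p = 0.128).

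Of 11 myeloid transcription factors, Cebpd (0.54 ± 0.13) and Cebpb (0.65 ± 0.17) were higher. Spi1, which encodes PU.1, differed by 0.86 ± 0.24 (adjusted p = 0.0566 in limma) and Gfi1, a factor of granulocyte maturation, by 1.33 ± 0.37 (adjusted p = 0.0565). Of 9 early response genes, the survival factor Mcl1 was higher (0.45 ± 0.09) and the cyclin Ccnd2 lower (-0.58 ± 0.11). Of the 56 pathway genes, 3, 0 and 0 were higher on dropping naive replicates 1, 2 and 3 in turn, and 0, 17, 2, 1 and 0 on dropping immunized replicates 1 to 5. Quantile normalization left 3 and array weights 27. Of all 18193 genes, 812 were higher with all samples, 540 after quantile normalization and 2495 with array weights. Dropping naive replicates 1 to 3 left 254, 17 and 121 of all genes higher, and dropping immunized replicates 1 to 5 left 101, 1293, 414, 491 and 236.

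**Figure D4:**
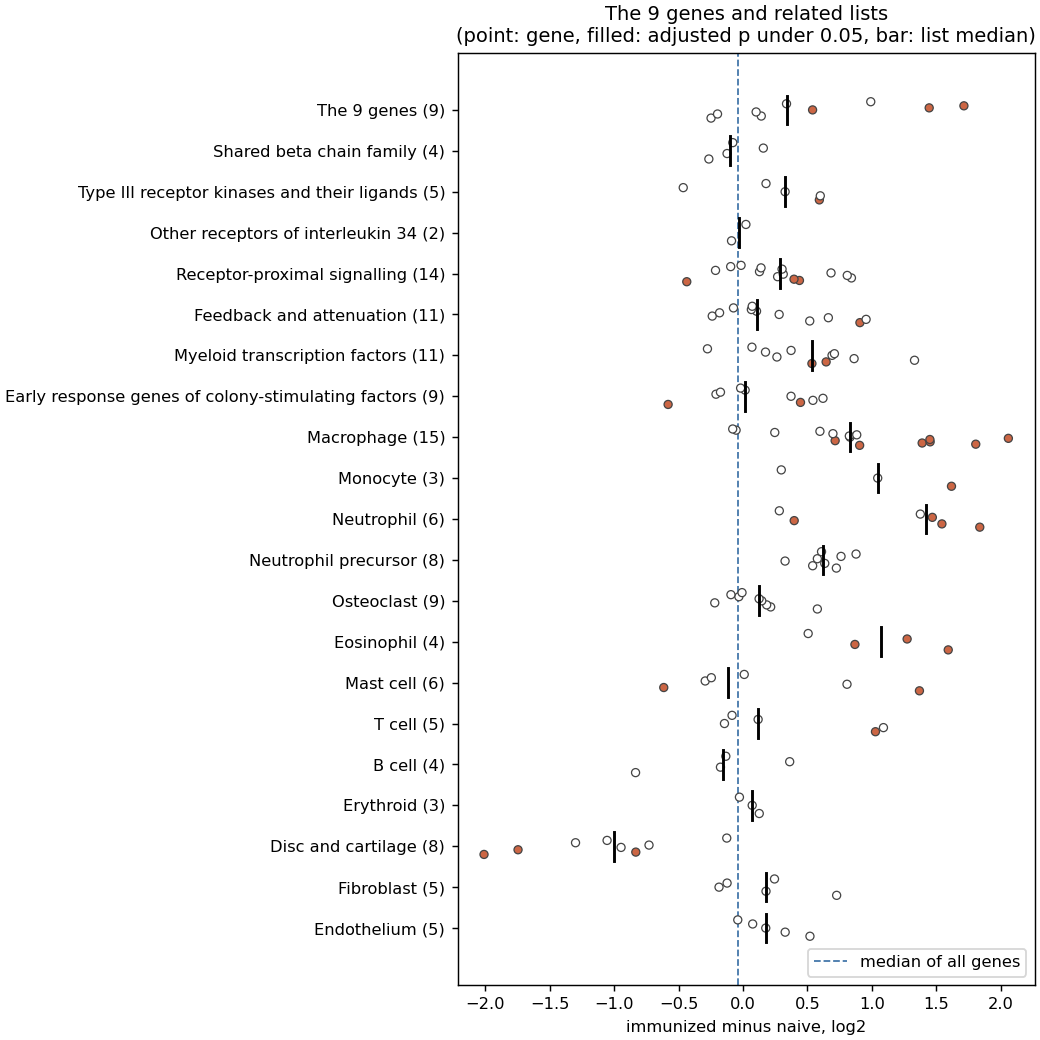
Difference between immunized and naive samples in log2 (x axis) for the 9 genes and for each measured gene of the 20 lists, with the number of genes in brackets; filled points have an adjusted p under 0.05 over all genes, black bars are list medians and the dashed line is the median of all genes (-0.035). The medians of the macrophage (0.83) and neutrophil (1.42) lists lie to the right of that line.

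The genes with the most similar profiles were found by Pearson's r over the 8 samples, which hold the group difference, so values near 1 are easily reached among so many genes. For Csf2rb they were Fcgr3, Ralb and Vcpkmt (r = 0.99, 0.99 and 0.99). For Csf2ra they were Tyrobp, Pirb and Tnfaip8l2 (0.99, 0.99 and 0.99), and for Csf2rb2 they were Rnf19b, Nfkbie and Grap (0.99, 0.99 and 0.99). Over deviations from the group means, Fcgr3 (0.98) again stood among the first 3 for Csf2rb beside Agap1 and Tnfaip2, and Tyrobp (0.99) for Csf2ra beside Man2b1 and Ikbke. For Csf2rb2 the first 3 were then Ccdc32, Rftn1 and Cadm1. Among the 9 genes themselves, deviations from the group means were closest for Csf1r and Csf2rb2 (r = 0.95) and for Csf2ra and Csf2rb (0.94), over the same 8 arrays and with no test.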

How the data were processed

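Deposited values were 1 log2 value per probe set and array (45101 probe sets, 8 Affymetrix arrays) from RMA (background correction, quantile normalization and probe summary), per the submitters' processing notes, with the version not given in the sources used here. Every probe set has a median of 0 across the arrays (to within 5.0e-07), so levels are lost and differences between groups are kept. The spacing of the values shows in which class (below 4, 4 to 8, 8 or more, log2) a probe set's lowest array lies. There are no read depths, and precision is limited by the number of arrays. Symbols came from the platform annotation, updated by gene identifier against RefSeq (GRCm38.p6; 0 symbols changed, 162 unmatched and kept). Control probe sets (64) were left out.

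Each of 18193 genes was the average of its single-gene probe sets. The groups were fitted with lmFit and eBayes of limma 3.58.1 under R 4.3.3, two-sided and without covariates. P-values were adjusted by Benjamini and Hochberg's method across the 18193 genes and called at 0.05, and differences carry limma's standard errors. The fit was tested on simulated data with known changes. The members and the 20 lists were chosen with earlier results of these data known. Named are the 9 members, of each list up to 4 genes with the largest moderated t, and for each called member the 3 most similar genes. Mertk and Siglec1 of the macrophage list are named besides. Some genes of the lists were not analysed here. The replicate numbers 1 to 3 recur in both groups. The labels state no pairing, and none was used in the fit above. Alternatives were scalings, variance models, array weights, a replicate block, omitted samples and omitted or single probe sets. Quantile normalization among them acted on the centred values, so it made their spread equal across arrays and did not renormalize levels.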

Additional observations from a re-analysis of the deposited data

Results flagged for a closer look

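Immunized replicate 2 lay below the other 4 immunized samples by most of the group's range in 3 of 77 quantities examined: Lyz2 (-0.17), Fcgr3 (-0.31) and Vcpkmt (-0.077). Chance puts about 1 in 20 groups of this size past the criterion used. None of the 9 colony-stimulating factor and receptor genes met the criterion. In Csf2ra, Csf2rb, Csf2rb2 and Csf3r the same sample was the lowest of the immunized group, at -0.20, -0.33, -0.15 and -0.15.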

How the results depend on the processing

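With all samples 3 of the 9 genes and 1663 genes in all passed. Leaving out 1 sample at a time gave 0 to 4 of the 9 and 21 to 3003 genes. Without both samples whose descriptions join 2 sample numbers, 0 of the 9 and 0 genes passed in limma (3 of the 9 higher, and 1621 genes higher and 2173 lower, unadjusted). Without naive replicate 1 and immunized replicates 3 and 5, chosen after the data were seen, 0 of the 9 and 218 genes passed in limma (4 of the 9 higher, unadjusted). Quantile normalization left 908 genes, array weights gave 5900, and 2787 of the probe sets passed singly. Deviations of same-numbered samples correlated at -0.05, 0.24 and -0.10 across genes. No mismatched pairs were compared, so whether the numbers pair the samples was not settled. With the replicate number as a block 7 genes and 0 of the 9 passed in limma (4 of the 9 higher and 1 lower, unadjusted). Csf1r then turned to -0.050. That fit takes the difference from replicates 1 to 3 only, since immunized replicates 4 and 5 have no naive sample of the same number. Over 18 alternatives Csf2rb passed in 11 (adjusted p from 8.8e-04 to 0.157), Csf2rb2 in 10 (0.0019 to 0.170), Csf2ra in 7 (0.0020 to 0.214) and Csf3r in 2 (0.0033 to 0.279), all with the same sign. Sdc1 ranged from -0.25 to 0.065 (the latter without immunized replicate 3) when 1 sample was left out and turned to 0.16 without the 3 samples above. Alas2 ranged from -0.098 (without naive replicate 2) to 0.36, with -0.013 without immunized replicate 3. The 9 within-array differences kept their sign after quantile normalization, without probe sets ending in _x_at or _s_at and with each sample left out. The cause of these shifts was not tested.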
